A study of Mus musculus with 6 samples.

Results

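Sympathetic neurons are represented here by 10 genes of noradrenaline synthesis, storage, reuptake and cotransmission and of the neuronal cytoskeleton, out of 55341 genes in the deposited count table. The genes were *Th*, *Ddc*, *Dbh*, *Slc18a2*, *Slc6a2*, *Npy*, *Tubb3*, *Stmn2*, *Prph* and *Uchl1*, each matched by its symbol, and all 10 were in the table. They were chosen by their measured levels across these 6 libraries, to set genes found in only some libraries beside genes found in all of them, so their pattern across libraries is given as a description and no test is drawn from it.

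Aortic vessels of mice were sequenced, with 1 library from each of 6 mice. Libraries M2626, M2627 and M2628 came from miRNA-26b-/- mice and libraries M2629, M2630 and M2631 from miRNA-26b+/+ mice, which the labels call naive. All carry the strain label C57BL/6NCrl, and the study describes the mice of both groups as of the same age, on chow and on a C57BL/6 background. The targeted allele was made in 129/Sv embryonic stem cells, so a mixed origin around the locus belongs to the model. The knockout allele was obtained from a floxed allele by tamoxifen and CreERT2, which was later removed by breeding, and whether the control mice had carried CreERT2 or received tamoxifen was not given in the sources used here. The labels call the material aortic endothelial cells, whereas the methods describe explanted aortic arch and thoracic aorta.

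Sympathetic neurons release noradrenaline onto blood vessels. Their cell bodies lie in ganglia outside the vessel, and their axons run in the adventitia, the outer layer of the wall. Tyrosine is hydroxylated by tyrosine hydroxylase (*Th*), decarboxylated by aromatic amino acid decarboxylase (*Ddc*), taken into vesicles by the vesicular monoamine transporter (*Slc18a2*) and turned into noradrenaline inside them by dopamine beta-hydroxylase (*Dbh*). Released noradrenaline is taken back up by the noradrenaline transporter (*Slc6a2*), and neuropeptide Y (*Npy*) is released with it. Most of a neuron's messenger RNA is held in its cell body.

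The genes lie on different chromosomes, apart from *Slc6a2* and *Tubb3*, in GENCODE M21 on mm10 and all are annotated as protein coding. *Th* spans chr7:142892752-142931128, *Ddc* chr11:11814101-11898144, *Dbh* chr2:27165233-27183200, *Slc18a2* chr19:59260896-59296012 and *Slc6a2* chr8:92960079-93001667. *Npy* spans chr6:49822710-49829507, *Tubb3* chr8:123411424-123422015, *Stmn2* chr3:8509360-8561606, *Prph* chr15:99055174-99058978 and *Uchl1* chr5:66676091-66687234.

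Upstream sequences of 8 of the 10 genes were in the RefSeq promoter table of build GRCm38.p6, which had no entry for *Slc6a2* and *Stmn2*. The sequences of 4 genes are shown, and 3 of the 4 held a motif that is marked in capitals. Each is read 5′ to 3′ on the gene's own strand, and capitals mark the palindromic cAMP response element TGACGTCA or the TATA box TATAAA, both searched on both strands.

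Th, minus strand, chr7:142900015-142900115: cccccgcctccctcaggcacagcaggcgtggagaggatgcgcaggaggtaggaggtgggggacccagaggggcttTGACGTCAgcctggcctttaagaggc

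Slc18a2, plus strand, chr19:59260762-59260881: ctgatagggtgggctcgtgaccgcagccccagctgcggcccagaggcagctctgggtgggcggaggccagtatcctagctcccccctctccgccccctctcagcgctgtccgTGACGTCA

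Npy, plus strand, chr6:49822590-49822709: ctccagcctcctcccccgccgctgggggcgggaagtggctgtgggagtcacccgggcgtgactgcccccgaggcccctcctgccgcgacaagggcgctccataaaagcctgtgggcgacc

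Prph, plus strand, chr15:99055054-99055173: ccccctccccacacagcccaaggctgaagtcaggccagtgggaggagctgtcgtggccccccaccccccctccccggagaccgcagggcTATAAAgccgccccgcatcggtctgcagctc

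None of the 4 stretches lay in an exon of the GENCODE annotation. The stretch of *Th* lay inside the annotated span of the gene, which includes a longer transcript, and the other 3 lay before the annotated gene. TGACGTCA occurred in the windows of *Th*, from base -45 to base -38, and of *Slc18a2*, where it spanned the RefSeq start from base -4 to base 4. It was present in 1.79% of 32851 windows of 300 bases, of which 250 lay before the start. TATAAA occurred in *Prph* from base -31 to base -26 and, on the opposite strand, in 1 of the *Ddc* windows, against 13.6% of windows. Shorter motifs were common, with the homeodomain core TAAT in 58.0% of windows and in those of 5 members, and the E box CANNTG in 72.3% of windows and in those of 3 members. These matches describe letters in a window and not sites.

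The libraries held 25706728 to 33345037 counts assigned to genes, and 16017 genes passed the filter of more than 1 CPM (counts scaled to the library's total) in at least 2 libraries. For the CPM levels reported, that total was first multiplied by the library's TMM normalization factor. All 10 members passed it. *Th* and *Dbh* passed only through M2627 and M2630, the libraries in which they were high. The targeted locus gave no check of the genotype labels, because *Mir26b* had 0 counts in 5 libraries and 20 counts in M2630, and mature miRNAs are not captured by this kind of library. Its host gene *Ctdsp1* had a log2 fold change of 0.20 between genotypes, with an adjusted p of 0.866 in edgeR's quasi-likelihood test. Smooth muscle genes dominated the libraries, led by *Acta2*, *Myh11* and *Tagln*, with a summed level of 31127 to 42023 CPM over 6 genes, whereas 8 endothelial genes, led by *Pecam1*, *Vwf* and *Cdh5*, summed to 450 to 1695 CPM. These sums are in CPM and not per length. The transcripts did not mark the material as purified endothelial cells, and the libraries are called aortic vessels here.

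**Figure D1:**
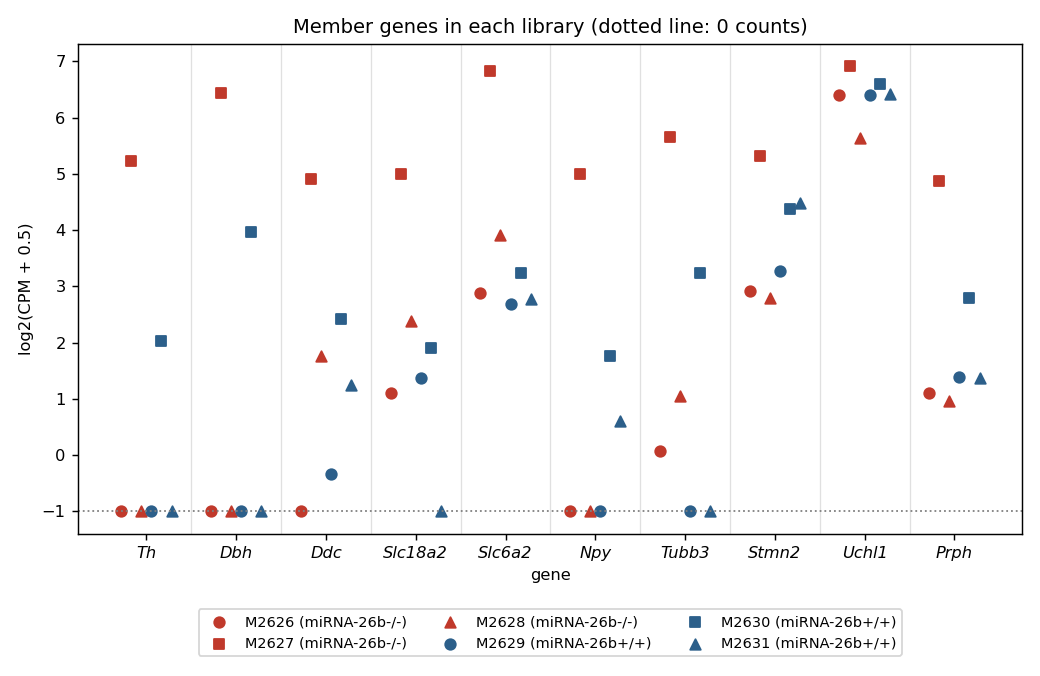
Level of each of the 10 genes in each library, as log2(CPM + 0.5), with red points for miRNA-26b-/- and blue points for miRNA-26b+/+ mice. The square points of M2627 are the highest for all 10 genes, and the points on the dotted line at -1.0 are libraries with 0 counts.

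The first enzyme of the pathway was found in only 2 of 6 libraries. *Th* had 1244 counts in M2627 and 98 counts in M2630, and 0 counts in M2626, M2628, M2629 and M2631. In CPM this was 37.1 in M2627 and 3.57 in M2630. A count of 0 allows up to 3 counts per library, which corresponds to 0.0979 to 0.117 CPM, so *Th* in M2627 was at least 316-fold higher than in each library without counts. Such limits and the intervals given further on cover counting error only. Zeros were frequent among low genes, since genes with a mean of 5 to 20 counts were at 0 in 46.0% of values in miRNA-26b-/- and 43.6% in miRNA-26b+/+ libraries, so a 0 does not bound the level in the tissue as tightly as that limit.

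*Dbh*, which makes noradrenaline from dopamine, had the same 4 libraries at 0 counts. It had 2892 counts in M2627 and 413 counts in M2630, or 86.2 and 15.0 CPM.

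The decarboxylase *Ddc*, which also serves serotonin synthesis, was less restricted. It had 0, 993 and 82 counts in M2626, M2627 and M2628, and 9, 134 and 57 counts in M2629, M2630 and M2631. M2627 and M2630 were again the highest and second highest, at 29.6 and 4.88 CPM, and the other 4 libraries ran from 0 to 2.91 CPM. The 9 counts of M2629 were the lowest value of any member above the floor of 3 counts.

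The vesicular transporter *Slc18a2*, which also loads serotonin and histamine in other cells, gave 42, 1058 and 133 counts for M2626, M2627 and M2628 and 64, 89 and 0 counts for M2629, M2630 and M2631. Only M2627 stood apart, at 31.5 CPM. M2630, at 3.24 CPM, lay within the range of the 4 other libraries, 0 to 4.72 CPM. *Hdc*, which makes histamine, had 110 counts in M2628, 58 in M2629, 5 in M2631 and 0 in the other 3 libraries, including both M2627 and M2630.

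The noradrenaline transporter *Slc6a2* was counted in every library. M2626, M2627 and M2628 had 175, 3785 and 411 counts, and M2629, M2630 and M2631 had 181, 244 and 193. M2627 held 75.9% of all *Slc6a2* counts, at 113 CPM. The remaining 5 libraries ran from 5.91 to 14.6 CPM, and M2630, at 8.89 CPM, was inside the range of the 4 libraries that had no *Th* or *Dbh* counts. *Slc6a2* was thus counted in the 4 libraries where *Th* and *Dbh* were not, 3 of which held counts of *Ddc*.

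*Npy*, the cotransmitter, had 0, 1060 and 0 counts in M2626, M2627 and M2628 and 0, 79 and 31 counts in M2629, M2630 and M2631. M2627 was the highest at 31.6 CPM, and M2630 followed at 2.88 CPM and M2631 at 1.03 CPM.

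Among the cytoskeletal genes, *Tubb3*, the neuronal class III beta-tubulin, followed the synthesis enzymes most closely. Knockout mice gave 14, 1676 and 44 counts (M2626 to M2628), and control mice gave 0, 245 and 0 (M2629 to M2631). Its level was 49.96 CPM in M2627, 8.93 CPM in M2630 and at most 1.56 CPM elsewhere.

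*Prph*, the intermediate filament peripherin of peripheral neurons, was counted 42, 966 and 41 times from M2626 to M2628 and 65, 177 and 63 times from M2629 to M2631. It differed from *Tubb3* in having a low level in every library: 1.45 to 2.12 CPM in the 4 others, beside 28.8 CPM in M2627 and 6.45 CPM in M2630.

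*Stmn2*, a tubulin-binding protein of growing axons, had a different second library. The knockout libraries M2626 to M2628 had 181, 1329 and 181 counts, and the control libraries M2629 to M2631 had 281, 557 and 664. M2627 was the highest at 39.6 CPM, but M2631, with 0 counts of *Th* and *Dbh*, was second at 22.0 CPM, above the 20.3 CPM of M2630.

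*Uchl1*, the ubiquitin hydrolase PGP9.5 that is used as a pan-neuronal marker and is also made by other cells, varied least. It had 2147, 4032 and 1392 counts from M2626 to M2628 and 2594, 2645 and 2562 from M2629 to M2631, or 49.4 to 120 CPM. M2627 held 26.2% of its counts, against 92.7% of those of *Th*. Its exons share 295 bases with the antisense gene *Uchl1os*, and the counting did not use strand, but *Uchl1os* itself had no more than 126 counts in any library. The only other member with an exon overlap was *Slc18a2*, with *Gm29261*, which had 0 counts throughout.

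Set side by side, 4 of the 10 genes, *Slc6a2*, *Stmn2*, *Uchl1* and *Prph*, had more than 3 counts in all 6 libraries, and the lowest value among them was 41 counts, of *Prph* in M2628. The other 6 had a library at 0 counts. All 10 were highest in M2627, where 17.0% of the genes tested were highest, and 7 were highest in M2627 and second in M2630, the order of 4.43% of the genes tested. Nothing is read from these counts, since the choice of genes used the pattern. The exceptions by second library were *Slc18a2* and *Slc6a2*, with M2628 second, and *Stmn2*, with M2631 second. Summed over the 10 genes the level was 567 CPM in M2627 and 171 CPM in M2630, and 81.0 to 118 CPM in the 4 others. Without *Uchl1* the sums were 447 and 74.2 CPM against 17.7 to 33.4 CPM. In whole tissue, fewer cells of a type and less RNA per cell cannot be told apart.

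**Figure D2:**
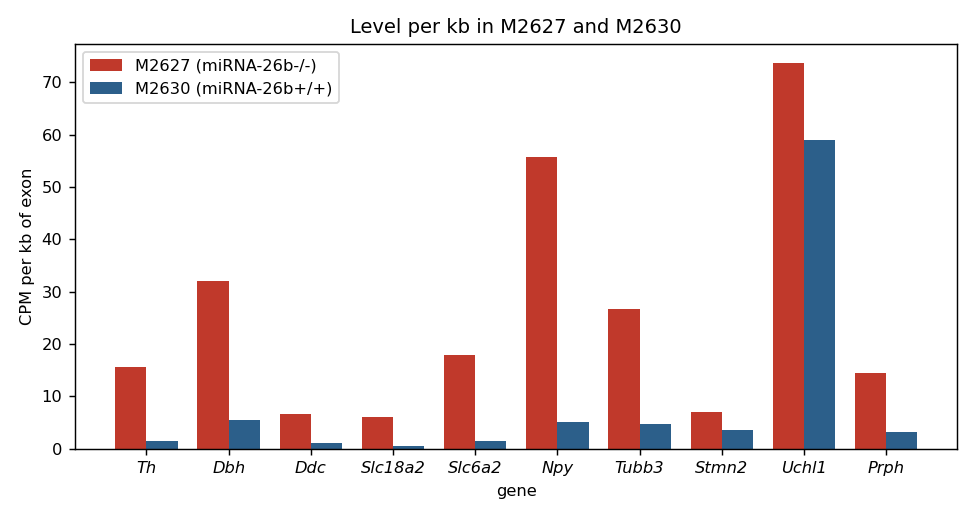
Level per kb of annotated exon, in CPM per kb, of the 10 genes in M2627 (red) and M2630 (blue). *Uchl1* has the tallest bar in both libraries, and *Npy* and *Dbh* follow in M2627.

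Levels of different genes were compared per kb of annotated exon. In M2627 the order was *Uchl1* at 73.7, *Npy* at 55.8, *Dbh* at 32.0, *Tubb3* at 26.7, *Slc6a2* at 17.9, *Th* at 15.7 and *Prph* at 14.4 CPM per kb, followed by *Stmn2*, *Ddc* and *Slc18a2* between 7.07 and 6.04 CPM per kb. *Th* was at 49.0% of the *Dbh* level per kb in M2627 and at 27.0% in M2630. *Npy* was at 174% of *Dbh* in M2627 and at 91.0% in M2630, so that *Dbh* and *Npy* exchanged places in the order. With 1 library on each side, these shares have no replicate check.

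The drop from M2627 to M2630 was not the same for all members. The CPM ratio of M2627 over M2630, with its 95% exact binomial counting interval, was 12.7 (11.1 to 14.5) for *Slc6a2*, 10.98 (8.73 to 14.0) for *Npy*, 10.4 (8.45 to 12.9) for *Th* and 9.73 (7.83 to 12.2) for *Slc18a2*, intervals that overlap each other. A second set had lower ratios that did not reach these intervals: 6.06 (5.06 to 7.32) for *Ddc*, 5.73 (5.17 to 6.37) for *Dbh*, 5.60 (4.89 to 6.43) for *Tubb3* and 4.46 (3.80 to 5.27) for *Prph*. *Stmn2* at 1.95 (1.77 to 2.16) and *Uchl1* at 1.25 (1.19 to 1.31) were lower still. These ratios include the level found in the 4 other libraries, and M2630 lay within their range for *Slc6a2* and *Slc18a2*. With the median of those 4 subtracted, the ratio was 46.6 for *Slc6a2*, 21.5 for *Slc18a2*, 10.98 for *Npy* and 10.4 for *Th*. It was then 7.52 for *Ddc*, 5.87 for *Prph*, 5.74 for *Tubb3*, 5.73 for *Dbh*, 2.97 for *Uchl1* and 2.59 for *Stmn2*. The grouping thus depends on the measure.

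The median ratio over all genes tested was 1.002, and 5.56% of them had a ratio above 4. The intervals compare these libraries and not genotypes. The spread between libraries of one genotype was wider than counting error, since genes with a mean of 5 to 20 counts had a mean ratio of variance to mean of 27.0 in miRNA-26b-/- and 23.6 in miRNA-26b+/+ libraries.

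**Figure D3:**
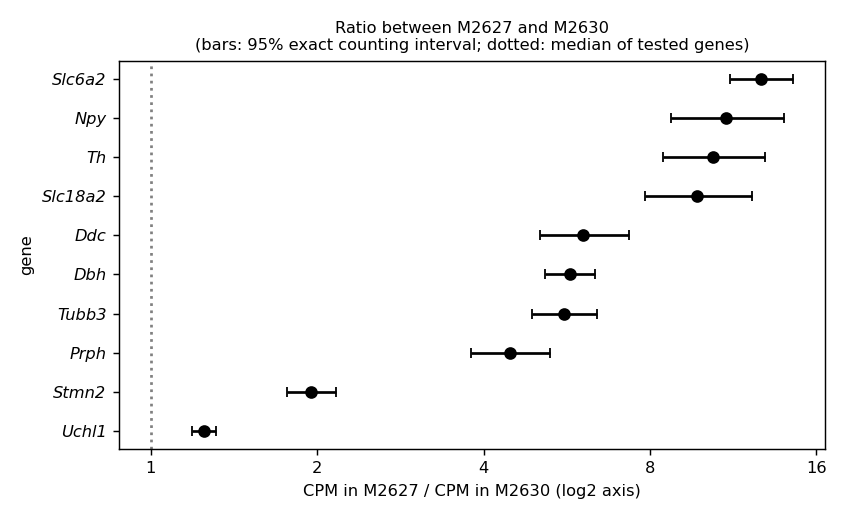
Ratio of the CPM in M2627 to that in M2630 for each gene, on a log2 axis, with bars for the 95% exact counting interval and a dotted line at the median of the genes tested, 1.002. *Slc6a2*, *Npy*, *Th* and *Slc18a2* lie between 9.73 and 12.7, and *Uchl1* lies lowest at 1.25.

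Between genotypes, none of the 10 genes passed an adjusted p of 0.05 in edgeR's quasi-likelihood test, where 0.00624% of the genes tested did, a single gene, *Gm15564* (log2 fold change 1.30, adjusted p = 0.0122). *Th* averaged 12.4 ± 21.4 CPM (SD, n = 3) in knockout mice and 1.19 ± 2.06 CPM (SD, n = 3) in control mice, with a log2 fold change of 3.62 and a standard error of 1.44 (edgeR adjusted p = 0.736). *Dbh* was at 28.7 ± 49.8 and 5.02 ± 8.69 CPM, with a log2 fold change of 2.72 and a standard error of 1.29 (edgeR adjusted p = 0.769). For both enzymes the SD exceeded the mean in each genotype, and libraries of both genotypes were at 0.

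*Slc6a2* had the smallest adjusted p of the 10. Its mean was 44.7 ± 59.1 CPM in knockout and 7.06 ± 1.602 CPM in control mice, with a log2 fold change of 2.74 and a standard error of 0.804 (edgeR adjusted p = 0.731). The genotypes overlapped, since M2626, at 6.84 CPM, was below M2630. *Stmn2*, at 17.7 ± 19.0 and 17.1 ± 6.96 CPM, and *Uchl1*, at 84.5 ± 35.4 and 88.6 ± 6.73 CPM, had log2 fold changes of 0.14 and -0.06 (edgeR adjusted p = 0.991 for each). The 5 remaining genes had log2 fold changes of 2.98 (*Slc18a2*), 3.23 (*Npy*), 2.76 (*Tubb3*), 2.39 (*Ddc*) and 1.75 (*Prph*). All 10 had overlapping genotypes. With limma voom the log2 fold changes were 1.71 for *Th*, 1.52 for *Dbh*, 0.25 for *Ddc*, 5.28 for *Tubb3*, 0.74 for *Prph* and -0.29 for *Npy*.

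At an unadjusted p under 0.05, 6 of the 10 were higher in miRNA-26b-/- libraries, where 3.4% of the genes tested were higher and 3.07% lower. The median log2 fold change was 2.73 over the 10 and 0.01 over all genes tested. Nothing is read from this count, because the members were chosen with these libraries' values known, and it rested on M2627. Without M2627, *Th* and *Dbh* no longer passed the filter, none of the other 8 genes was higher at an unadjusted p under 0.05, and *Stmn2* was lower at a log2 fold change of -1.34 (edgeR adjusted p = 0.857). In that fit 425 of 15598 genes tested were higher and 472 lower at an unadjusted p under 0.05. Leaving out M2629 left 2 genes of the 10 at that p, beside 839 of 15701 genes tested. Leaving out M2631 left 1, beside 686 of 15726. The earlier form of edgeR's quasi-likelihood test and DESeq2 each left 1 gene of the 10 under an unadjusted p of 0.05, *Slc6a2*. Of all 16017 genes tested, 802 and 840 were under that p in these 2 tests. DESeq2 gave no p for *Th*, *Dbh*, *Npy*, *Tubb3* and *Prph*.

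**Figure D4:**
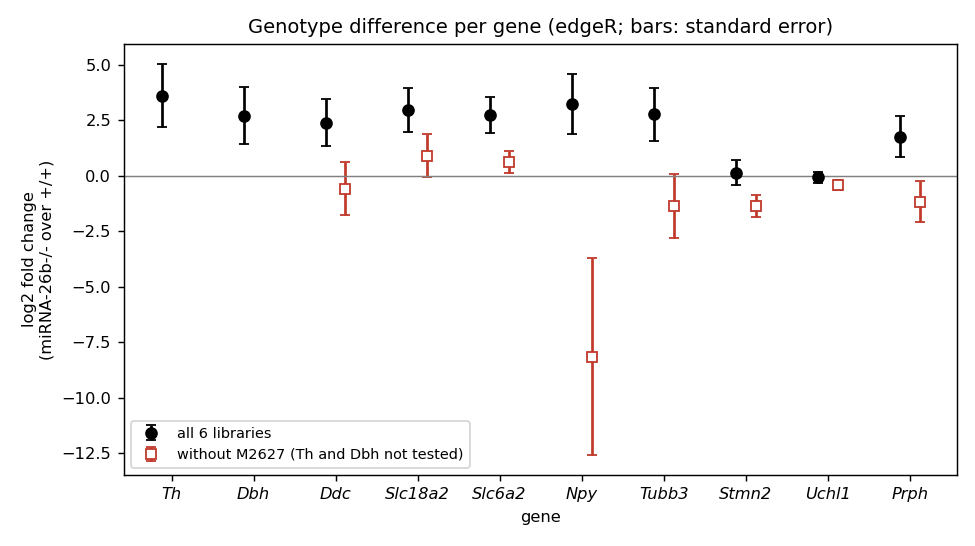
Log2 fold change of miRNA-26b-/- over miRNA-26b+/+ for each gene with its standard error, from all 6 libraries (black circles) and without M2627 (open red squares). The black circle of *Th* lies at 3.62, whereas without M2627 only *Slc18a2* at 0.90 and *Slc6a2* at 0.63 lie above 0, and the value of *Npy* is a fit against libraries at 0 counts and has no size of its own.

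Of the other genes of noradrenaline handling, most had another order of libraries than *Th* and *Dbh*. Of 11 tested, which include tetrahydrobiopterin synthesis, breakdown and other transporters, none was higher or lower at an unadjusted p under 0.05. Their median log2 fold change was 0.12. The order M2627 then M2630, found in 4.43% of all genes tested, was that of 1 gene. It was the vesicular transporter *Slc18a1*, with 49 and 33 counts and 0 elsewhere. Those with the highest mean CPM, the sense in which the most abundant genes of each list are named, included the breakdown enzyme *Maob*, at 35.1 to 73.3 CPM, and *Cyb561*, the vesicle cytochrome that supplies electrons to *Dbh*, at 59.6 to 103 CPM. *Gch1*, the first enzyme of the *Th* cofactor tetrahydrobiopterin, was at 7.87 CPM in both M2627 and M2630, above the 0.742 to 4.80 CPM of the others. *Pnmt*, which makes adrenaline, had 43 counts in M2628 and 0 elsewhere.

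Some regulators and receptors of sympathetic neurons were counted mainly in the same libraries. Of 15 listed, 9 were tested and none was higher or lower at an unadjusted p under 0.05. Highest in M2627 were 6 of the 9, beside 17.0% of all genes tested. *Chrna3*, the ganglionic nicotinic receptor subunit, had 309 counts in M2627, 20 in M2630 and 0 elsewhere, and its partner *Chrnb4* had 210, 57 and at most 1. *Gata2*, *Hand2* and *Ret*, the most abundant of the list, were counted in all 6 libraries, and *Gata2* was lowest in M2626 and M2627, at 3.01 and 8.70 CPM. *Phox2a* was also counted in all libraries, with 22 to 132 counts, but its exons share 95 bases with *Inppl1*, which had 1758 to 2513 counts, so its low counts are uncertain.

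Genes of dense-core vesicles, which store peptides and amines, were split. *Cpe* at 2518 to 3090 CPM and *Pam* at 2056 to 2537 CPM were abundant in all libraries. Of 7 tested, *Chgb*, *Scg2* and *Pcsk1n* were higher in miRNA-26b-/- libraries at an unadjusted p under 0.05, beside 3.4% of all genes tested. They were highest in M2627, at 9.12, 13.1 and 11.8 CPM. The median log2 fold change over the 7 was 2.81. Without M2627 none of 5 tested remained under an unadjusted p of 0.05.

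Of 19 axon and synapse genes tested, 15 were highest in M2627 and 9 of these had M2630 second. Among all genes tested, 17.0% were highest in M2627 and 4.43% also had M2630 second. The lists were chosen with earlier results of these data known, so nothing is read from such counts. *Snap25* and *Syt1*, proteins of vesicle release, were at 25.2 and 26.1 CPM in M2627, 2.51 and 3.50 CPM in M2630 and below 1 CPM elsewhere. *Snap25*, *Syt1*, *Syn1* and *Eno2* were higher at an unadjusted p under 0.05, beside 3.4% of all genes tested. None of the list was higher at that p without M2627. *Map1b*, *Mllt11* and *Syp*, the most abundant of the list, were found in every library, with *Map1b* at 673 to 869 CPM.

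Close relatives of the members had other orders of libraries. Of 13 paralogues and related filament genes tested, 4 were highest in M2627, beside 17.0% of all genes tested. The 4 were the beta-tubulins *Tubb2a*, *Tubb4a*, *Tubb4b* and *Tubb5*, and none of them had M2630 second. *Vim* alone was lower in miRNA-26b-/- libraries at an unadjusted p under 0.05, beside 3.07% of all genes tested. Its log2 fold change was -0.29, and it did not pass that p without M2627. *Vim*, *Tubb5* and *Des* were the most abundant, with *Tubb5* at 274 to 340 CPM and no library standing apart as M2627 did for *Tubb3*. *Tubb4a* was at 88.2 CPM in M2627 and at 49.1 to 58.4 CPM in the other libraries. The paralogue hydroxylase *Tph2* had 0 counts in all libraries.

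On the receiving side, none of 9 adrenergic and NPY receptor genes tested and none of 6 neurotrophic factor genes tested was higher or lower at an unadjusted p under 0.05. *Npy1r* ran from 86.8 to 204 CPM, *Adra1d* from 58.8 to 99.7 CPM and *Adrb3* from 7.21 to 59.0 CPM. *Npy2r* and *Npy5r* had 0 counts in all libraries. Of the factors that sympathetic axons respond to, *Ntf3*, *Nrtn* and *Bdnf* were the most abundant, and *Ntf3* ran from 17.2 to 64.1 CPM.

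Of the markers of other neurons, of the adrenal cortex and of paraganglia, some had 0 counts throughout. Others were counted in only some libraries or in every library. The sensory neuron genes *Tac1*, *Scn10a*, *Mrgprd*, *Pou4f1* and *Prdm12* had 0 counts in all 6 libraries, 2 of 12 were tested, and the most abundant were *Piezo2*, at 5.76 to 21.8 CPM, *Avil* and *P2rx3*. *Avil* was at 12.6 CPM in M2627, 2.59 CPM in M2630 and at most 1.64 CPM elsewhere. It was higher in miRNA-26b-/- libraries at an unadjusted p under 0.05, beside 3.4% of all genes tested. Without M2627 it did not pass that p. *Chat*, *Slc5a7*, *Vip* and *Hmx3*, which mark cholinergic neurons, had 0 counts in all libraries, and *Nos1* had at most 22. No gene of the adrenal cortex list had a count in M2627, M2628 or M2630, and its highest was *Cyp11a1* with 75 counts in M2631, followed by *Hsd3b1* and *Cyp21a1*. Of 4 paraganglion genes, *Olfr78* had 0 counts throughout, *Drd2* had 171 counts in M2627 and 0 elsewhere, *Kcnk9* had 30 counts in M2627 and 40 in M2630, and *Penk* ran from 8.83 to 23.1 CPM.

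Markers of tissues next to the aorta also moved with M2627 and M2630. The 6 brown fat genes, led by *Plin1*, *Adipoq* and *Ucp1*, summed to 755 CPM in M2627 and 553 CPM in M2630, against 188 to 394 CPM in the 4 others. M2627 and M2630 were the highest and second highest for 5 of the 6, and for 4.43% of all genes tested. The 6 heart muscle genes, led by *Ryr2*, *Myh6* and *Actc1*, summed to 367 and 403 CPM against 114 to 153 CPM. *Ryr2* held most of the sum in the 4 others, at 88.6 to 125 CPM. It was lowest in M2627, at 74.0 CPM, and highest in M2630, at 137 CPM. *Myh6* alone was at 146 CPM in M2627 and 135 CPM in M2630, so that this gene was about as high in both libraries where *Th* differed 10.4-fold. None of the brown fat or heart genes had an unadjusted p under 0.05 between genotypes. Without M2627, 4 heart genes were lower in miRNA-26b-/- libraries at that p, beside 472 of 15598 genes tested. The part of these tissues in the members' levels was not tested.

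Glial, endothelial, skeletal muscle and lymphocyte genes had other orders. The 15 Schwann cell and satellite glia genes had *Pmp22* and *Mbp* among the most abundant. They summed to 617 CPM in M2626 and 625 CPM in M2627 but to 277 CPM in M2630. At an unadjusted p under 0.05, 11 of them were higher in miRNA-26b-/- libraries, beside 3.4% of all genes tested. Without M2627, 8 of 13 were higher at that p, beside 425 of 15598 genes tested. Thus M2626 had as much glial transcript as M2627 and 0 counts of *Th*, *Dbh*, *Ddc* and *Npy*. The sum of the endothelial genes was lowest in M2626 and M2627, at 450 and 470 CPM, against 1187 to 1695 CPM in the 4 others. *Kdr* and *Egfl7* had another order. *Kdr* was at 29.7 CPM in M2627 and lowest in M2628, at 8.83 CPM, and *Egfl7* was second highest in M2626, at 38.4 CPM. *Tek* was lower in miRNA-26b-/- libraries at an unadjusted p under 0.05, beside 3.07% of all genes tested. Without M2627 it did not pass that p. Of 6 skeletal muscle genes, led by *Ckm*, *Acta1* and *Myh4*, 5 were higher at that p, beside 3.4% of all genes tested. The 6 summed to 88.3 CPM in M2627 and 30.7 CPM in M2626. Without M2627, 2 of 5 were higher at that p, beside 425 of 15598 genes tested. Lymphocyte genes, with *Ms4a1* and *Cd79a* among the most abundant, summed to at most 4.203 CPM. The part of these cell types in the members' levels was not tested.

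**Figure D5:**
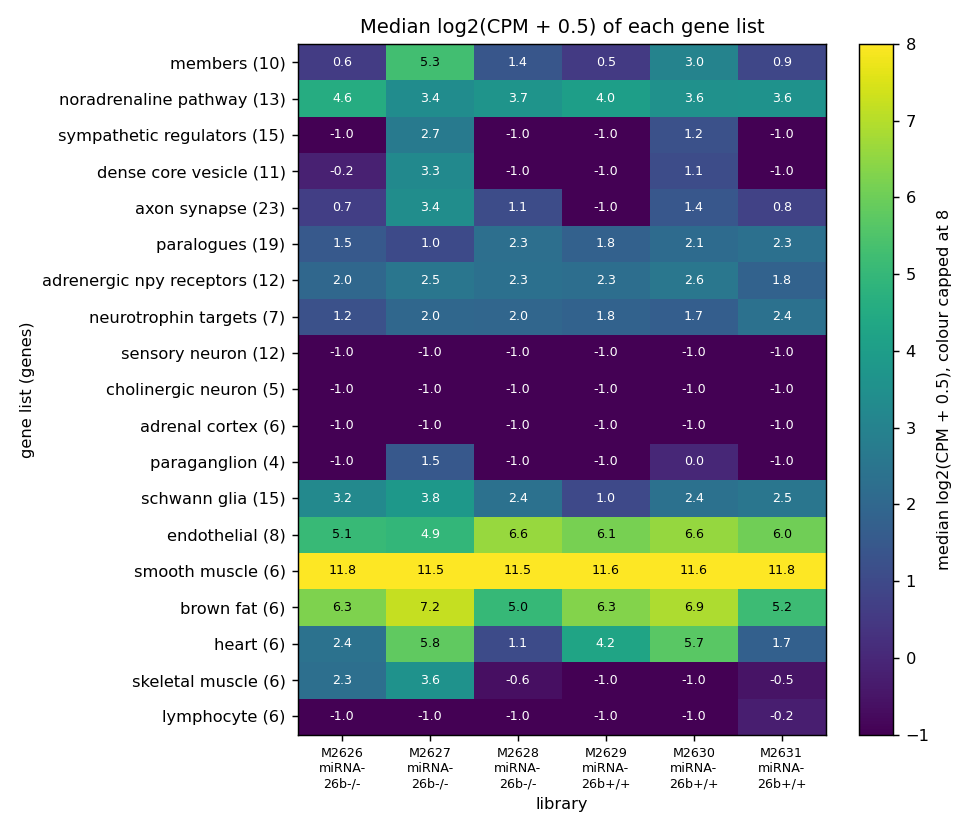
Median log2(CPM + 0.5) of each gene list (rows, with the number of genes) in each library (columns), where -1.0 means that the median gene had 0 counts. The 10 genes have medians of 5.3 in M2627 and 3.0 in M2630 and at most 1.4 elsewhere, and the cholinergic, sensory and adrenal cortex lists are at -1.0 in all 6 libraries.

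The genes whose pattern was most like that of noradrenaline synthesis and transport were found by Pearson's r over the 6 libraries between log2(CPM + 0.5) of each gene and the mean of *Th*, *Dbh*, *Ddc*, *Slc18a2* and *Slc6a2*. Over 201 genes with a mean of at least 1 CPM and a range of at least 4 on that scale, the 20 most alike had r from 0.922 to 0.998. Of them 19 were highest in M2627 and second in M2630, which follows from the choice, because the mean has that order too. Most passed the level of 1 CPM only through M2627, such as *Rit2* with 289 counts there, 15 in M2630 and 0 elsewhere. M2627 also set the upper end of the range of each gene named. Their likeness thus follows in large part from the filter and is no support for a shared source. The 20 genes were *Slc7a14*, *Htr3a*, *Pirt*, *Stmn3*, *Sult4a1*, *Cplx1*, *Rab3c*, *Cadps*, *Disp2*, *Elavl2*, *Chrna3*, *Rit2*, *Snap25*, *Ngfr*, *Syt1*, *Chgb*, *Astn1*, *Ckmt2*, *Necab1* and *Pcsk1n*. *Htr3a*, a serotonin receptor channel, had 680 counts in M2627, 98 in M2630, 29 in M2628 and 0 in the others. *Ngfr*, the p75 neurotrophin receptor of sympathetic neurons and glia, was at 33.5 CPM in M2627, 4.66 CPM in M2630 and at most 0.508 CPM elsewhere.

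Of the members, *Th* had r = 0.98 with that mean, *Tubb3* 0.97, *Prph* 0.97, *Dbh* 0.96, *Npy* 0.93, *Slc6a2* and *Ddc* 0.92, *Slc18a2* 0.87, *Stmn2* 0.74 and *Uchl1* 0.57. The 5 genes that make up the mean are correlated with themselves in part, and all genes share the same 6 libraries. These values describe 6 libraries and carry no p.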

How the data were processed

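RNA of aortic vessels from 3 miRNA-26b-/- and 3 miRNA-26b+/+ mice was sequenced, 1 library per mouse, from TruSeq libraries that do not mark strand. The authors aligned reads to mm10 with STAR and deposited raw counts per gene symbol. Per the file headers the counts came from featureCounts 1.6.4 over exons with GENCODE M21, without a strand option and with reads in overlapping genes counted for each gene, whereas the methods name release M23. A second deposited table of the authors' normalized values, fold changes and p-values was not used. Library totals ran from 25706728 to 33345037 counts.

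The counts were normalized by TMM (factors 0.982 to 1.02) and tested with edgeR 4.0.16 (quasi-likelihood, two-sided, Benjamini-Hochberg over all genes tested) in R 4.3.3, for 16017 genes that exceeded 1 CPM in 2 or more libraries and summed to 2 counts or more. Fold changes used a prior count of 0.125. DESeq2 1.42.0, limma 3.58.1 (voom), other scalings and filters and left-out libraries were alternatives. The newer form of the quasi-likelihood fit was taken as the main one after the calls of both forms had been seen, for all genes and for these 10, and the results of both are given. Fits were tested on simulated data. Standard errors were taken as the fold change divided by the square root of F.

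The members and gene lists were chosen with earlier results of these data known. The genes named were the 10 members, the 3 most abundant genes and any others of each list, the 20 genes most like the noradrenaline genes, the targeted locus and genes past an adjusted p of 0.05, of which some are not reported here. The promoter window was widened past the start site, and genes counted in a single library were listed, after the data had been seen. The labels give no pairing, batch or litter. p-values measure the spread between these mice, and an exact test of 3 against 3 could not go below 0.1.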

Additional observations from a re-analysis of the deposited data

How the results depend on the processing

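No member passed an adjusted p of 0.05 in the alternatives that tested it. These were 11 for *Th* and *Dbh*, which were not tested with filterByExpr, without M2627, without M2630 or without both, 14 for *Npy* and *Tubb3*, which were not tested without both, and 15 for the others. DESeq2 gave no p for *Th*, *Dbh*, *Npy*, *Tubb3* and *Prph*, and the lowest adjusted p was 0.0505, of *Slc6a2* in edgeR without M2628. Over all genes, the 1 gene with an adjusted p under 0.05 became 57 with DESeq2, 3 with limma voom, 0 with the earlier quasi-likelihood method, 0 without M2627 and M2630, and 0 to 82 when single libraries were left out, with 82 without M2628. The 1035 genes at an unadjusted p under 0.05 became 840 with DESeq2, 847 with limma voom and 802 with the earlier method. That number was 607 without M2627 and M2630 and 686 to 1692 without single libraries, lowest without M2631 and highest without M2628. The 6 members at an unadjusted p under 0.05 became 1 with DESeq2, 0 with limma voom, 1 with the earlier method, 0 without M2627 and M2630, and 1 to 8 without single libraries, with 1 without M2627, 2 without M2629 and 1 without M2631. The 26 calls over the lists became 13 with DESeq2, 14 with limma voom, 12 with the earlier method, 10 without both libraries and 12 to 47 without single libraries, lowest without M2629 and highest without M2628. Of the 20 most alike genes, 13 were shared with a pseudocount of 0.1 CPM and 9 with a range of at least 2.

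The direction turned for *Npy* with limma voom (-0.29), for *Stmn2* with limma voom (-0.26) and without both libraries (-1.21), and for *Prph* without both (-0.44). Without single libraries the log2 fold change ran from -0.58 to 3.46 for *Ddc*, -8.15 to 4.52 for *Npy*, -1.37 to 12.1 for *Tubb3*, -1.34 to 0.54 for *Stmn2*, -0.42 to 0.22 for *Uchl1* and -1.16 to 2.47 for *Prph*. The cause was not tested, except that fewer libraries enter those fits, and the extremes of *Npy* and *Tubb3* are fits against libraries at 0. Between 4 and 5 members had more than 3 counts in every library when single libraries were left out. No paired analysis was possible because the labels give no shared replicate numbers.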

Other observations

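Genes counted in a single library were unevenly spread. In M2627, 31 genes had at least 100 counts and at most 3 in each of the 5 other libraries, against 7 in M2628, 2 in M2630, 2 in M2631, 1 in M2629 and 0 in M2626. The highest of the 31 were *Ppp2r2c* with 483 counts, *Slc10a4*, a vesicle transporter of cholinergic and monoaminergic neurons, with 391, *Htr3b*, the partner subunit of *Htr3a*, with 325, and *Cacna1b*, the N-type calcium channel of nerve terminals, with 275. The 31 also held the neuronal RNA-binding proteins *Elavl4* with 191 counts and *Elavl3* with 123, and *Drd2*. They were listed after the values had been seen, M2627 was also the library with the most counts, 33345037, and no test was made.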
